A study of Homo sapiens with 6 samples.

Results

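The genes described here encode interleukins, their receptors and related proteins. They were chosen by symbol: all named genes whose symbol begins with IL and a digit, or with TNFSF, TNFRSF or TNFAIP, apart from 1 gene left out by the rule. This gave 56 of the 14884 named genes. By role, 27 encode secreted ligands, 20 receptors or receptor subunits, 3 soluble inhibitors and 1 an enzyme, and 5 are noncoding RNAs. The symbols cover interleukins far better than the TNF superfamily. Of the 56 genes, 54 begin with IL, 0 with TNFSF or TNFAIP and 2 with TNFRSF, and these 2, TNFRSF10A-DT and TNFRSF14-AS1, are noncoding RNAs beside receptor genes. The set is therefore called interleukin genes below, and the TNF superfamily members listed under other symbols, such as CD70, are given apart.

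Interleukins are signalling proteins that act on the cell that makes them or on its neighbours. Receptors of the IL-1 family signal through MYD88 and IRAK proteins to NF-kB, receptors of the IL-17 family through other adaptors, and most of the remaining interleukin receptors through JAK kinases and STAT transcription factors. Tubule epithelium is known both to release interleukins and to respond to those of leukocytes, in particular after kidney injury.

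RNA came from HK2 cells, an established human proximal tubule line of the kidney, grown in DMEM with serum and transduced with a pLKO.1 lentivirus. The 3 control arrays carried an shRNA against GFP (shGFP) and the other 3 an shRNA against PGC-1alpha (shPGC-1alpha), a coactivator of transcription that drives the making of mitochondria. Both groups were selected with puromycin and harvested on day 5 after transduction, 24 hours after selection ended. The labels name a single shRNA in each group, so effects of that hairpin on other transcripts and effects of lower PGC-1alpha cannot be told apart, and with 0 probe sets named PPARGC1A its level was not analysed here. All levels are log2 RMA values, a normalised microarray signal, and all differences are shPGC-1alpha minus shGFP on that log2 scale. Probe sets differ in brightness, so differences are taken within a gene, and levels are otherwise set only against the percentiles of all genes.

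Array medians lay between 5.00 and 5.04. Of 15 proximal tubule markers 7 were measured, with 1 higher, 1 lower and 5 not passed. PAX8, a transcription factor of kidney epithelium, rose by 0.38 and DPP4 fell by 0.27, a call lost with the replicate number as a block (limma adjusted p 0.0608). The DPP4 call was also lost without any 1 array but shPGC-1alpha replicate 1 (limma adjusted p 0.0569 to 0.0867). ANPEP, AQP1 and GGT5 were at 0.16, 0.00 and -0.05. LRP2 and CUBN, the megalin and cubilin genes that mark the differentiated proximal tubule, were at 0.06 and -0.06, and both had a mean below the 20th percentile of all named genes, 4.43. The list's mean level was 6.63 to 6.71 on the shGFP arrays and 6.68 to 6.74 on the shPGC-1alpha arrays. The 20th percentile is used below as a guide to dim probe sets, as no detection calls were given. Of 16 leukocyte markers 7 were measured. Their mean level was 6.25 to 6.34 on the shGFP arrays and 6.29 to 6.37 on the shPGC-1alpha arrays. CD68 was higher, at 0.34, CSF1R was lower, at -0.48, and 5 did not pass. PTPRC and CD3E were not among the named genes. Of 7 fibroblast markers 2 were measured, and both rose, DCN by 0.83 and LUM by 0.76. The mean of DCN, 4.21, lay below the 20th percentile. Of 5 endothelial markers 3 were measured and 0 passed. PECAM1 and KDR, both dim, were at -0.12 and -0.10, and VWF was at -0.04. Of 6 general epithelial markers 5 were measured. KRT19, EPCAM and KRT18 fell, with differences of -1.42, -0.73 and -0.31, and KRT7 and KRT8 did not pass, at -0.31 and -0.09. The share that passed was 28.57% for the proximal tubule and for the leukocyte markers and 60% for the general epithelial markers. It was 100% for the fibroblast and 0% for the endothelial markers, against 21.8% of all genes. The part of these marker differences in the results below was not tested.

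The 250 bases before the annotated start of 4 of these genes are printed here because they belong to the interleukin genes with the largest rise (IL1RAP) and the largest fall (IL17RB) and to 2 genes that rose and whose window held a searched motif (IL11 and IL7R). Capitals mark motif matches. The sequences are those of RefSeq on GRCh38.p14, written 5′ to 3′ on the strand of the gene.

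IL1RAP, chr3:190513835-190514084, plus strand: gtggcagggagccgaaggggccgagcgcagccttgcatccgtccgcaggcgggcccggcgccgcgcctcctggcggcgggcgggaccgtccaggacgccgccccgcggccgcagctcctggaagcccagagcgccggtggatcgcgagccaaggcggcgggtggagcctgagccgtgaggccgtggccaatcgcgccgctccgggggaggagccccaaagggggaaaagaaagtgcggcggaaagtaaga

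IL17RB, chr3:53846318-53846567, plus strand: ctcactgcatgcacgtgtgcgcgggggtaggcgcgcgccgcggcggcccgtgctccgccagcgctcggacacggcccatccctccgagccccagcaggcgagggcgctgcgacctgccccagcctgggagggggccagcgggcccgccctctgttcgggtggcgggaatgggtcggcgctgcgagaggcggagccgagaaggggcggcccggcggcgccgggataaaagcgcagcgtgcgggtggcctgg

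IL11, chr19:55370464-55370713, minus strand: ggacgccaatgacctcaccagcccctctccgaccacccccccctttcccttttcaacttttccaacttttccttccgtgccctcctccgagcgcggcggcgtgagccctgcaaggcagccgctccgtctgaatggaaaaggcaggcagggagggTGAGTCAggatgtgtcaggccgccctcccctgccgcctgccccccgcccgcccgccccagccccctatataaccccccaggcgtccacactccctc

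IL7R, chr5:35856641-35856890, plus strand: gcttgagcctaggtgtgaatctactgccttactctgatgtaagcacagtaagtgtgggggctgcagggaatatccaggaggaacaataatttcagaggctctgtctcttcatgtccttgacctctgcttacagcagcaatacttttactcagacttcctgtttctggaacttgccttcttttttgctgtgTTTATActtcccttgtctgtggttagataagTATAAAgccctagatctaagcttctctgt

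Such a window was found for 43 of the 56 genes, of which 9 passed the test described below. It was searched on both strands for the NF-kB motif, the AP-1 motif TGANTCA, the STAT motif TTCNNNGAA, the motif TCAAGGTCA of the estrogen-related receptors, which PGC-1alpha is known to coactivate, and TATAAA. These motifs may overlap each other. IL11 held 1 AP-1 match, at position -96 from the start. This motif was in 6 of the 43 windows and in 5.14% of the 10749 windows of named genes. IL7R held TATAAA at -29 and, on the other strand, at -60, and IL20 held it at -32, against 7 of the 43 windows and 8.14% of all. The windows of IL1RAP, IL1RL2, IL17RB, IL17RD, IL20RB and IL4I1 held none of these letters. The NF-kB motif was in 4 of the 43 windows, those of IL17D, IL32, IL4R and IL17REL, which did not pass the test, and in 5.81% of all. The STAT motif was in 2 of the 43, those of IL17D and IL10RB-DT, and in 5.92% of all, and the estrogen-related receptor motif in 1, that of IL33, and in 0.23% of all. A match is a description of the sequence and does not show binding.

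More receptors than ligands differed between the groups. In limma, at an adjusted p under 0.05 over all 14884 genes, 7 of the 56 interleukin genes were higher on the shPGC-1alpha arrays and 4 were lower. Of 20 receptors, 4 rose (IL1RAP, IL1RL2, IL7R and IL31RA) and 3 fell (IL17RB, IL20RB and IL17RD). Of 27 ligands, 2 rose (IL11 and IL20) and 1 fell (IL22), and the enzyme gene IL4I1 rose. Inhibitors and noncoding RNAs had 0 calls.

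The share of calls was near the background for the set as a whole. Of all genes, 21.8% passed, 9.58% higher and 12.2% lower, against 19.64% of the interleukin genes. Receptors stood above this share, with 35% passed, and ligands below it, with 11.11%. The difference between ligands and receptors was not tested as such. Dim probe sets were unequally spread: 13 of 27 ligands and 5 of 20 receptors had a mean below 4.43. Among those at or above it, 7 of 15 receptors and 1 of 14 ligands passed, against 26.2% of all genes at or above it. The median difference was 0.01 over the ligands and 0.02 over the receptors, beside -0.02 over all genes. The median size of a difference, whatever its sign, was 0.08 over the ligands, 0.21 over the receptors and 0.14 over all genes. Values of one group all lay above those of the other for 19 of the 56 genes (33.93%), against 38.7% of all genes. At a stricter adjusted p under 0.01, 6 of the 56 passed, against 11.4% of all genes. With the adjustment made over all probe sets, named or not, 6 of the 56 passed as well, against 6.65% of the probe sets. Of these 53617 probe sets 37519 are unnamed, so that share is not a like background for the 56 named genes. The share of named genes was not computed for this setting. In a bulk sample, fewer cells that make a transcript and less of it per cell cannot be told apart.

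**Figure D1:**
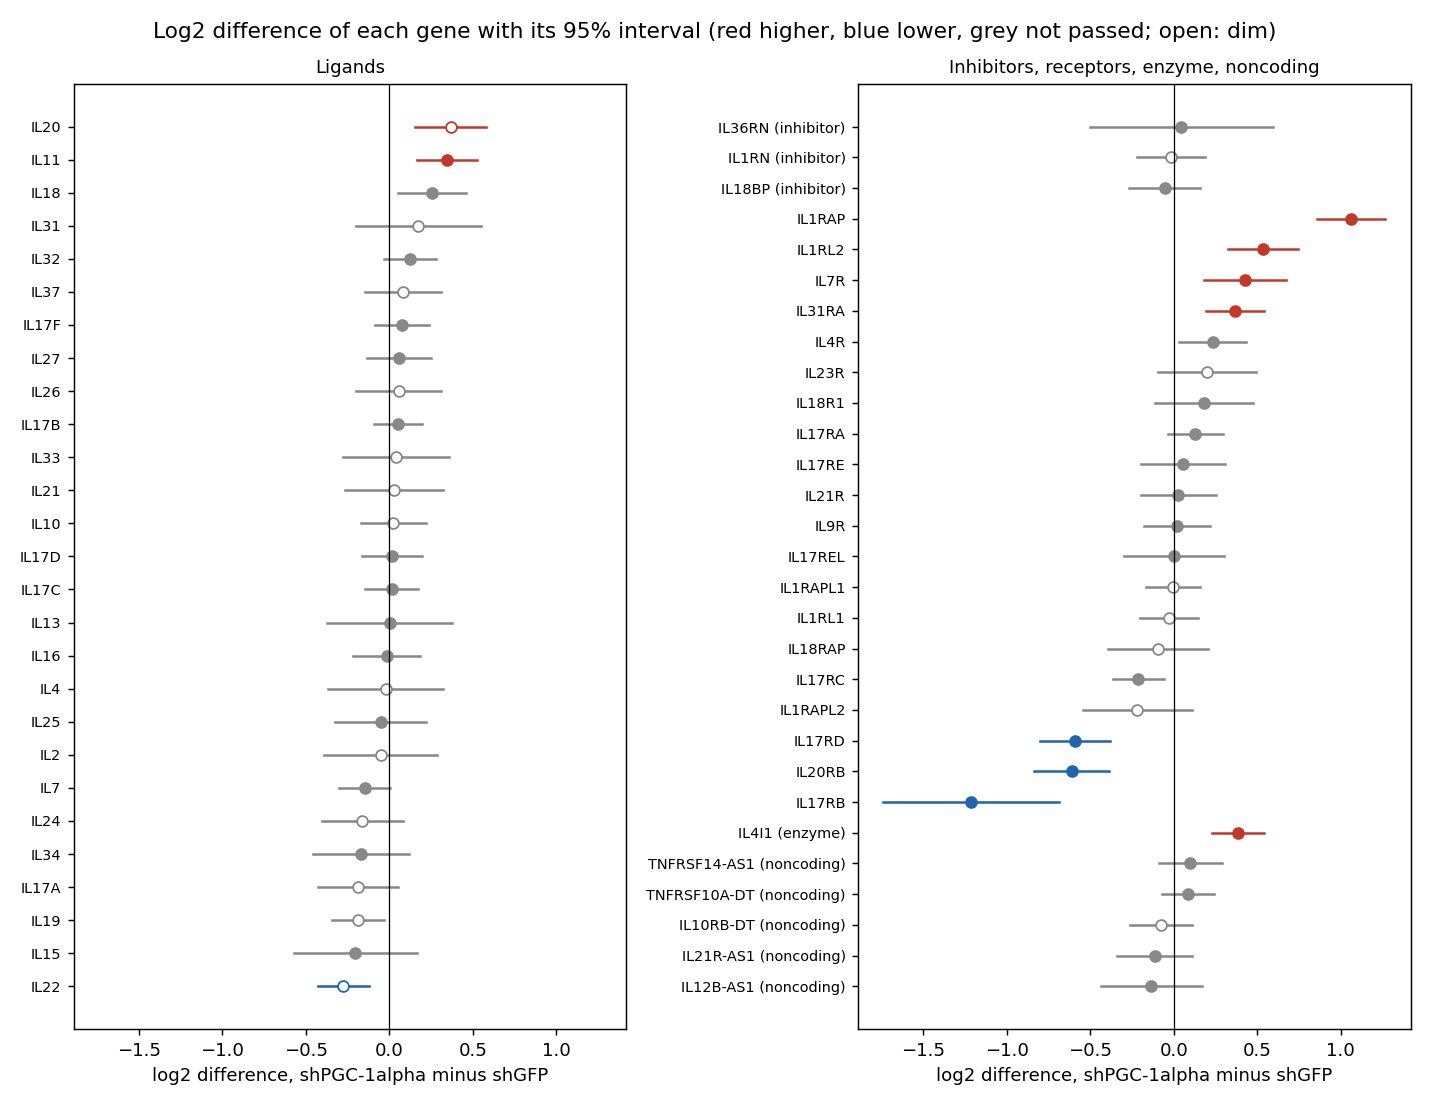
Log2 difference (shPGC-1alpha minus shGFP) of each of the 56 genes, with the 95% interval of the limma fit, ligands on the left and the other roles on the right. Red genes were higher, blue genes lower and grey genes did not pass; open circles are genes with a mean below 4.43. Receptors run from -1.21 for IL17RB to 1.06 for IL1RAP and ligands from -0.28 for IL22 to 0.37 for IL20.

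Among the ligands, IL11, a cytokine that signals through gp130, stood at 7.90, 7.70 and 7.82 on the shGFP arrays and at 8.09, 8.14 and 8.22 on the shPGC-1alpha arrays. Every shPGC-1alpha array lay above every shGFP array. IL11 rose by 0.35 (SE 0.08) or 1.27-fold, from 7.80 ± 0.10 (SD, n = 3) to 8.15 ± 0.07, with a limma adjusted p of 0.017. Its call was lost without shGFP replicate 2 (limma adjusted p 0.0611), shGFP replicate 3 (0.0521) or shPGC-1alpha replicate 3 (0.0561).

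The other ligands that passed, IL20 and IL22, belong to the IL-10 family and act mainly on epithelia. They had dim probe sets in every array. IL20 stood at 3.27, 3.16 and 2.98 with shGFP and at 3.57, 3.51 and 3.425 with shPGC-1alpha, a rise of 0.37 (SE 0.09) and a limma adjusted p of 0.0258. IL22 stood at 3.21, 3.12 and 3.17 with shGFP and at 2.95, 2.88 and 2.85 with shPGC-1alpha, a fall of 0.28 (SE 0.06) and a limma adjusted p of 0.0218. The groups did not overlap for either gene, but both lay below the 20th percentile. The call of IL20 was lost when any of 4 arrays was left out: replicate 2 or 3 of shGFP, and replicate 1 or 2 of shPGC-1alpha (limma adjusted p 0.0671, 0.0709, 0.0782 and 0.0714). That of IL22 was likewise lost without replicate 1 or 3 of shGFP, and without replicate 2 or 3 of shPGC-1alpha (limma adjusted p 0.0641, 0.0703, 0.0666 and 0.0637).

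Of the 24 ligands that did not pass, 4 had groups that did not overlap. Over all 27 ligands it was 7 (25.93%), below the 38.7% of all genes. IL18, an IL-1 family cytokine that epithelia hold as a precursor, stood at 7.78, 7.70 and 7.59 with shGFP and at 7.9998, 8.02 and 7.81 with shPGC-1alpha. Its difference was 0.26 (95% interval 0.05 to 0.46) with a limma adjusted p of 0.0771. IL32, at 0.12, lay higher on every shPGC-1alpha array, and IL19, at -0.19, and IL7, a lymphocyte growth factor, at -0.15, lay lower on every one. Their limma adjusted p was 0.241, 0.0906 and 0.163.

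The remaining ligands overlapped between the groups. In the IL-17 family, whose members act on epithelia to raise chemokines, IL17A was at -0.19, IL17B at 0.05, IL17C at 0.01, IL17D at 0.01, IL17F at 0.08 and IL25 at -0.05. Among the IL-10 family, the anti-inflammatory IL10 was at 0.02, IL24 at -0.16 and IL26 at 0.06. The T-cell cytokines IL2, IL4, IL13 and IL21 were at -0.05, -0.02, 0.00 and 0.03, and IL15, which supports natural killer and memory T cells, at -0.20. IL15 was at 5.998 on shGFP replicate 1 and between 5.36 and 5.47 on the other 5 arrays. Of the IL-1 family, the alarmin IL33 was at 0.04 and IL37 at 0.08. IL27 was at 0.06, IL31 at 0.17, IL16 at -0.02 and IL34, a ligand of the CSF1 receptor, at -0.17. The 95% interval of the difference was narrow for some, such as -0.15 to 0.17 for IL17C, and wide for others, such as -0.57 to 0.16 for IL15.

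Natural inhibitors of the IL-1 family did not pass. The receptor antagonist IL1RN was at -0.02 (95% interval -0.22 to 0.19), the IL-36 receptor antagonist IL36RN at 0.05 (-0.50 to 0.59) and the soluble IL-18 binding protein IL18BP at -0.05 (-0.27 to 0.16).

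Of 13 genes of the IL-1 family, ligands and inhibitors included, 2 receptor chains rose and 0 genes fell (15.38%, against 21.8% of all genes). A mean below 4.43 was found for 7 of the 13. Among the 6 at or above it, 2 passed (33.33%, against 26.2% of all such genes). IL1R1, the signalling receptor of IL-1, was not among the named genes. IL1RAP, the accessory chain that IL-1, IL-33 and IL-36 receptors share, stood at 6.99, 6.88 and 6.91 on the shGFP arrays and at 8.06, 8.08 and 7.82 on the shPGC-1alpha arrays. The gap between the groups was wider than the spread within either. It rose by 1.06 (SE 0.09) or 2.09-fold, from 6.93 ± 0.06 (SD, n = 3) to 7.99 ± 0.14, with a limma adjusted p of 0.000291. IL1RL2, the ligand-binding chain of the IL-36 receptor, stood at 5.11, 4.99 and 5.09 with shGFP and at 5.74, 5.61 and 5.44 with shPGC-1alpha. It rose by 0.53 (SE 0.09) or 1.45-fold, with a limma adjusted p of 0.0056. IL1RAP and IL1RL2 passed in every alternative in which they were fitted.

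Other chains of this family, which also work with IL1RAP or resemble it, did not pass. IL1RL1, the IL-33 receptor, was at -0.03 (95% interval -0.20 to 0.15) and dim. The IL-18 receptor chains IL18R1 and IL18RAP were at 0.18 and -0.09, and IL1RAPL1 and IL1RAPL2, known from neurons, at 0.00 and -0.22. The genes IL1RL2, IL1RL1, IL18R1 and IL18RAP follow each other on the chromosome in the RefSeq annotation, with 0 protein-coding genes between them, and of the 4 IL1RL2 was the one that passed.

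Of 12 genes of the IL-17 family, ligands included, 2 receptors fell and 0 genes rose (16.67%, against 21.8% of all genes). IL17RB, the receptor of IL-25 and IL-17B, stood at 6.26, 6.45 and 6.35 with shGFP and at 5.59, 5.22 and 4.61 with shPGC-1alpha. The shPGC-1alpha arrays were spread over nearly 1 log2 unit, and each was below the lowest control. It fell by 1.21 (SE 0.22), or 2.32-fold, from 6.35 ± 0.10 (SD, n = 3) to 5.14 ± 0.50, with a limma adjusted p of 0.00822. The difference was -0.95 without shPGC-1alpha replicate 3 and passed there too. The gene overlaps ACTR8 in the RefSeq annotation, and ACTR8 was at 0.03.

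IL17RD, a family member known as a brake on fibroblast growth factor signalling, stood at 5.93, 5.997 and 5.93 with shGFP and at 5.39, 5.20 and 5.50 with shPGC-1alpha. All shPGC-1alpha arrays were lower, and it fell by 0.59 (SE 0.09) or 1.51-fold, with a limma adjusted p of 0.00334. IL17RC, which pairs with IL17RA to receive IL-17A and IL-17F, stood at 6.49, 6.43 and 6.43 with shGFP and at 6.24, 6.17 and 6.30 with shPGC-1alpha. Its difference of -0.21 (95% interval -0.37 to -0.06) missed the threshold, with a limma adjusted p of 0.0559, and passed where dim genes were left out (limma adjusted p 0.034 among genes above the 20th percentile). IL17RA, the shared chain of the family, was at 0.13 (95% interval -0.04 to 0.29), with every shPGC-1alpha array above every control. IL17RE, the receptor of IL-17C, was at 0.05 and IL17REL at 0.00.

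IL20RB, a chain of the receptors for IL-19, IL-20 and IL-24, fell. It stood at 9.83, 9.76 and 9.70 on the shGFP arrays and at 9.30, 9.19 and 8.97 on the shPGC-1alpha arrays, without overlap. The fall was 0.61 (SE 0.10) or 1.53-fold, from 9.76 ± 0.06 (SD, n = 3) to 9.15 ± 0.17, with a limma adjusted p of 0.00409. Its ligands were at -0.19 for IL19, 0.37 for IL20 and -0.16 for IL24, all dim. These ligands and IL10 follow each other on the chromosome in the RefSeq annotation, with 0 protein-coding genes between them, and IL20 was the one of the 4 that passed. IL20RB also overlaps its antisense RNA IL20RB-AS1, which was not among the named genes.

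Of the receptors that signal through JAK kinases, other than IL20RB, which fell, IL31RA and IL7R rose. IL31RA, which forms the IL-31 receptor with OSMR, stood at 5.25, 5.07 and 5.23 with shGFP and at 5.56, 5.59 and 5.50 with shPGC-1alpha. It rose by 0.37 (SE 0.07) or 1.29-fold, with a limma adjusted p of 0.0116. IL7R, a chain of the receptors for IL-7 and, with CRLF2, for TSLP, stood at 5.53, 5.86 and 5.89 with shGFP and at 6.22, 6.14 and 6.20 with shPGC-1alpha. The control of replicate 1 lay furthest below the shPGC-1alpha arrays. IL7R rose by 0.43 (SE 0.10) or 1.34-fold, with a limma adjusted p of 0.0258, and its difference was 0.31 without shGFP replicate 1. Its call was lost without any 1 of the 3 shPGC-1alpha arrays (0.0727, 0.0578 and 0.0765 without replicates 1, 2 and 3).

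IL4R, the receptor chain of IL-4 and IL-13, stood at 7.76, 7.70 and 7.63 with shGFP and at 7.81, 8.07 and 7.89 with shPGC-1alpha. The groups did not overlap, but the difference of 0.23 (95% interval 0.03 to 0.43) had a limma adjusted p of 0.1. IL9R, IL21R and IL23R were at 0.02, 0.03 and 0.20, with overlapping groups.

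The enzyme gene IL4I1, a secreted amino acid oxidase named for its induction by IL-4, stood at 8.47, 8.54 and 8.58 with shGFP and at 8.95, 8.85 and 8.95 with shPGC-1alpha. It rose by 0.38 (SE 0.07) or 1.30-fold, with a limma adjusted p of 0.00641. The gene overlaps NUP62 and ATF5 in the RefSeq annotation. ATF5 was at 0.46 and NUP62 was not among the named genes, so the value of IL4I1 is uncertain as far as its probes can read them. The noncoding RNAs IL10RB-DT, IL12B-AS1, IL21R-AS1, TNFRSF14-AS1 and TNFRSF10A-DT were at -0.08, -0.14, -0.12, 0.10 and 0.09. TNFRSF10A-DT had 2 probe sets that disagreed, the brighter at 0.09 and the other at -0.34. With the second, which has the larger SD over arrays, it was called lower (limma adjusted p 0.0431). IL12B-AS1 also had 2, at -0.14 and -0.15.

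**Figure D2:**
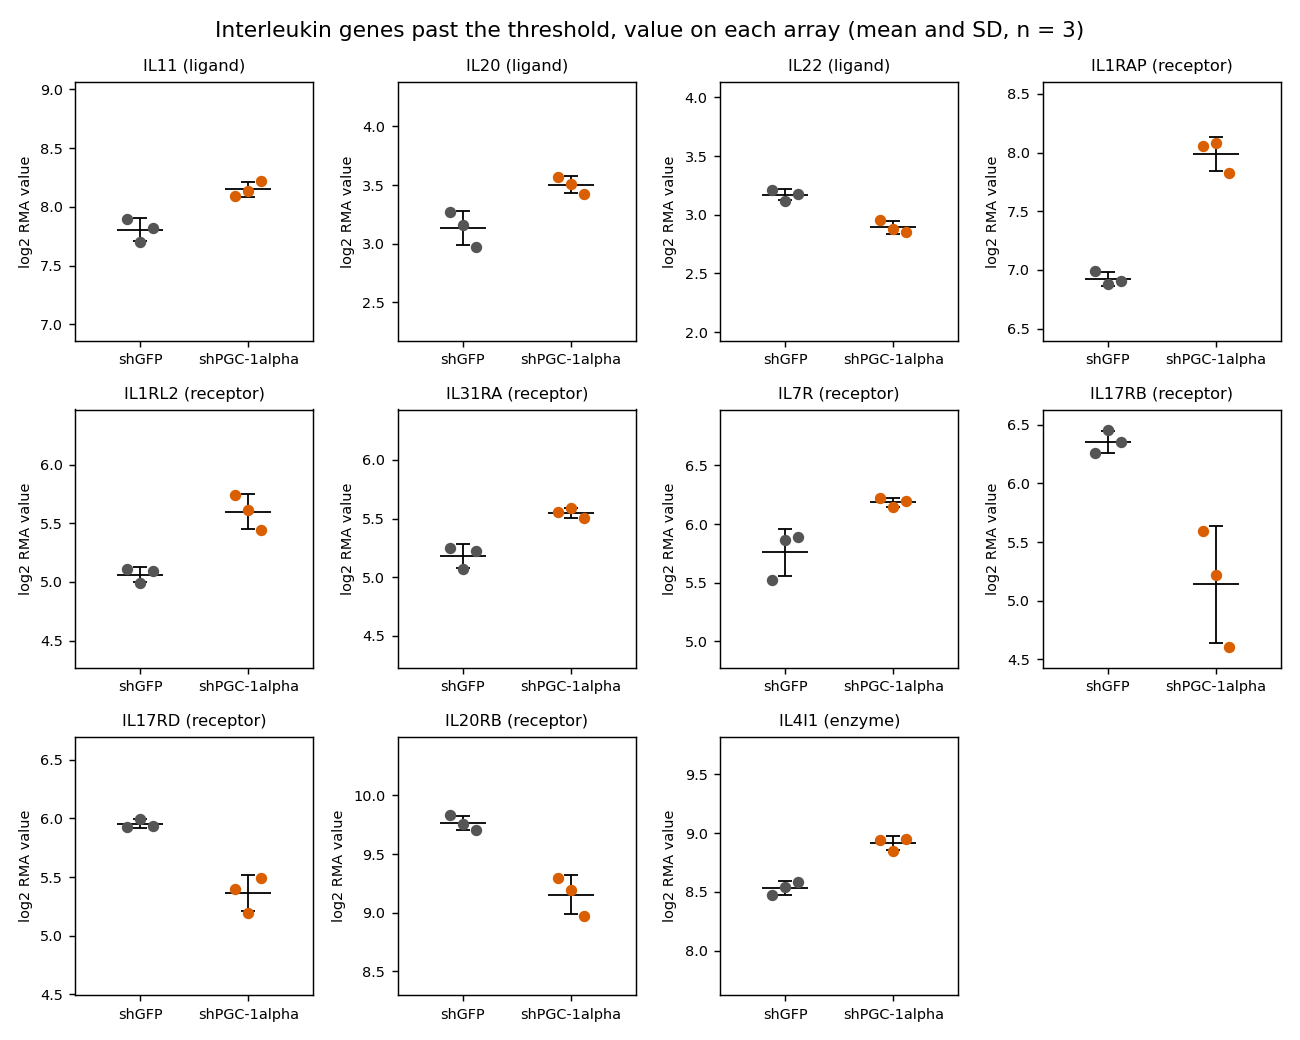
Log2 RMA value on each array for the 11 interleukin genes past the threshold; points are arrays (grey shGFP, orange shPGC-1alpha), the long bar is the mean and the error bar the SD (n = 3), and every panel spans the same 2.2 log2 units. The 3 shPGC-1alpha arrays of IL1RAP sit between 7.82 and 8.08 above controls between 6.88 and 6.99, and those of IL17RB spread from 4.61 to 5.59.

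**Figure D3:**
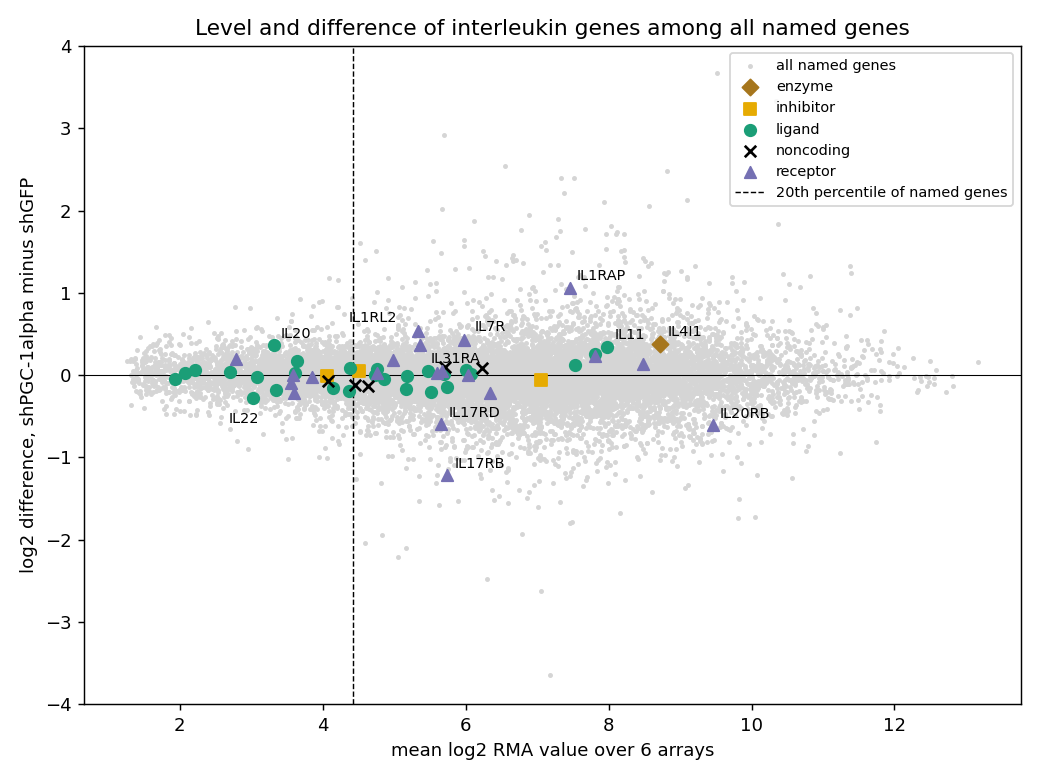
Mean log2 RMA value over 6 arrays (horizontal) against log2 difference, shPGC-1alpha minus shGFP (vertical), for all 14884 named genes in grey and the 56 interleukin genes by role; the dashed line is the 20th percentile at 4.43. IL20 and IL22 lie left of the line, and the receptors that passed lie right of it.

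Genes that act with these receptors but carry other symbols were counted in lists. Of 13 measured genes listed as gp130 and related, TSLP and CRLF2 included, 5 rose and 1 fell (46.15%, against 21.8% of all genes). Their median difference was 0.19. Of the 12 above the 20th percentile 6 passed (50%, against 26.2% of all such genes). OSMR, the partner of IL31RA, rose by 0.45 (SE 0.06), LIFR, the receptor of leukemia inhibitory factor, by 0.50 (SE 0.07) and EBI3, the partner of IL27, by 0.57 (SE 0.11). The leptin receptor LEPR fell by 0.61 (SE 0.07). CRLF2, the partner of IL7R in the TSLP receptor, was at 0.15, and TSLP at -0.23, neither past the threshold. The remaining calls of the 5 were CSF3, which rose by 0.45 (SE 0.09), and LIF, by 0.34 (SE 0.07). LIF lost its call without shGFP replicate 2 (limma adjusted p 0.0594).

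Among 11 measured genes of IL-1 and IL-17 receptor signalling 3 rose and 0 fell, with a median of 0.15. All 11 lay above the 20th percentile, and their share of calls, 27.27%, was near the 26.2% of all such genes. ZC3H12A, an RNase that degrades cytokine transcripts, rose by 2.05 (SE 0.06). IRAK2 rose by 1.51 (SE 0.11), and IRAK3, a family member known to restrain the pathway, by 1.33 (SE 0.08). IRAK3 has 2 probe sets that differ in size, and their mean gave 0.76. The adaptor MYD88 was at 0.20 and the kinase IRAK1 at -0.01.

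Of 16 measured genes of the JAK, STAT and SOCS families 4 rose and 2 fell (37.5%, against 26.2% of all genes above the 20th percentile, where all 16 lay), with a median of -0.02. The feedback inhibitors SOCS3 and SOCS1 rose by 0.94 (SE 0.10) and 0.88 (SE 0.11), and JAK1, the kinase used by gp130 receptors, rose by 0.54 (SE 0.06). The mean of its probe sets gave 0.69 for SOCS3. STAT4 fell by 0.72 (SE 0.11) and CISH, listed with the SOCS genes, by 0.36 (SE 0.07). STAT3, also counted as higher, at 0.27, lost its call without any 1 array but shGFP replicate 1 (limma adjusted p 0.0524 to 0.0794). Both measured interferon gamma receptor chains, IFNGR1 and IFNGR2, rose, by 0.99 (SE 0.10) and 1.05 (SE 0.06), of 5 interferon receptor genes listed. Both lay above the 20th percentile, where 26.2% of all genes passed.

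In the TNF superfamily under other symbols, 1 of 3 measured ligands rose (33.33%, against 26.2% of all genes above the 20th percentile, where all 3 lay). CD70, the ligand of CD27, stood at 9.42 ± 0.02 (SD, n = 3) with shGFP and at 10.33 ± 0.06 with shPGC-1alpha, a rise of 0.91 (SE 0.06). TNF was at 0.01 and EDA at -0.08. Of 5 measured receptors 0 passed in limma and 1, RELT, had an unadjusted p under 0.05. All 5 lay above the 20th percentile, where 26.2% of all genes passed. RELT was at 0.22 and NGFR at 0.12. Of 20 measured genes of TNF receptor signalling 4 rose and 4 fell, with a median of 0.08. Of the 19 above the 20th percentile 7 passed (36.84%, against 26.2% of all such genes). TNIP1, which binds the NF-kB inhibitor A20, rose by 1.14 (SE 0.08) and the deubiquitinase CYLD by 0.725 (SE 0.08). The kinase MAP3K7 (TAK1) fell by 0.72 (SE 0.06) and RBCK1, a subunit of the linear ubiquitin ligase, by 0.52 (SE 0.07). TNIP2 fell by 0.53 (SE 0.09), and TNIP3, with a dim probe set, rose by 0.42 (SE 0.08). Of the other calls, CFLAR, at -0.25, was lost without any 1 array but shPGC-1alpha replicate 1 (limma adjusted p 0.0839 to 0.121), and MAP3K14, at 0.26, without any but shGFP replicate 2 (0.0822 to 0.14). With the replicate number as a block, both calls were lost (limma adjusted p 0.0543 and 0.082).

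**Figure D4:**
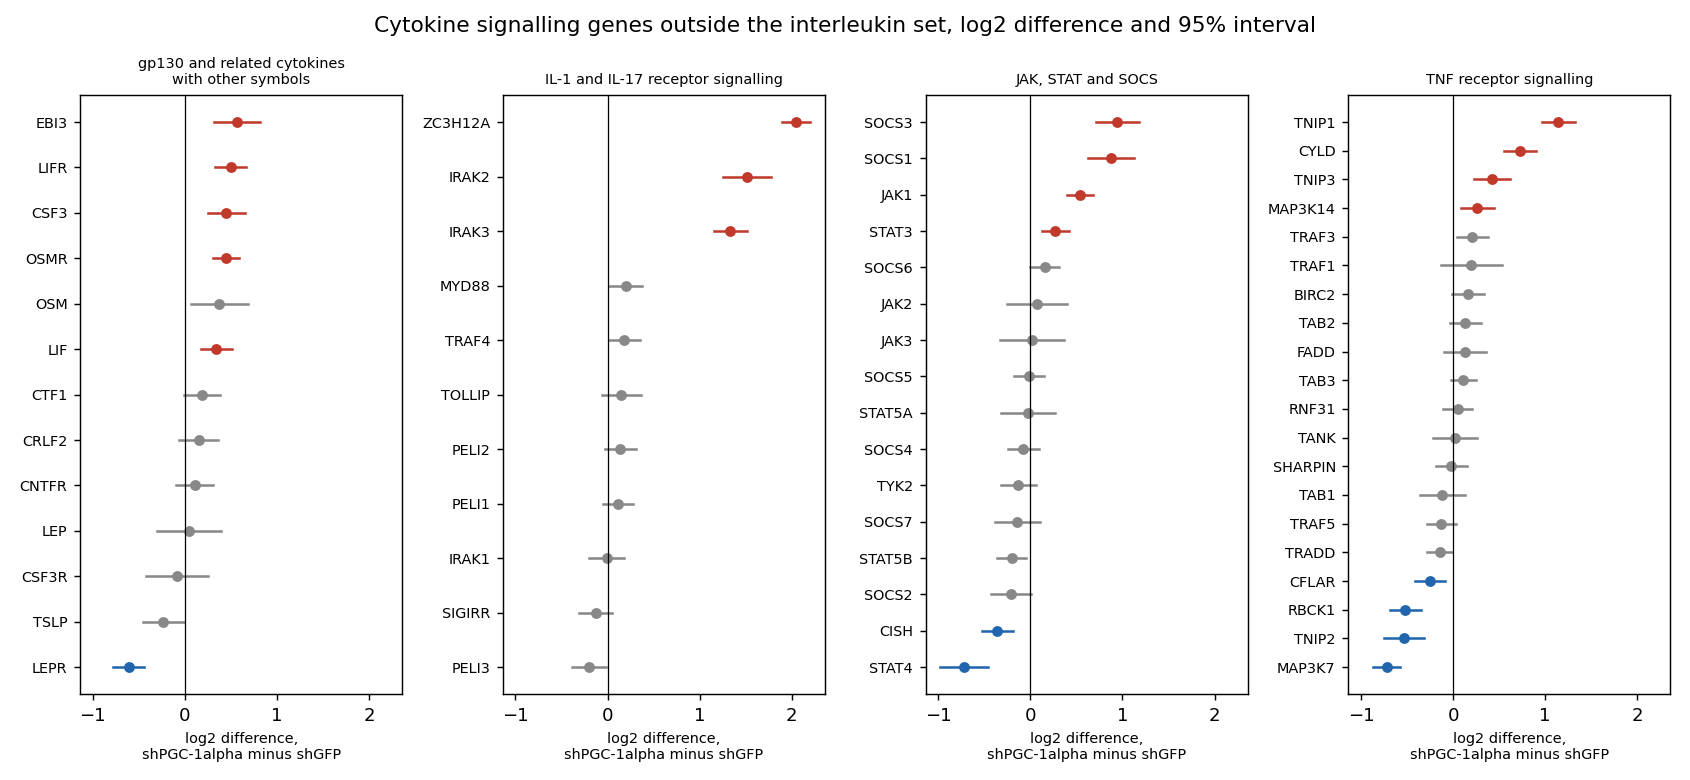
Log2 difference (shPGC-1alpha minus shGFP, horizontal) with its 95% interval for the measured genes of 4 lists of cytokine signalling genes; red genes were higher, blue genes lower and grey genes did not pass. ZC3H12A, at 2.05, and IRAK2, at 1.51, lie furthest to the right, and STAT4 and MAP3K7, both at -0.72, furthest to the left.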

How the data were processed

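The authors deposited log2 expression values for 53617 probe sets on 6 arrays, made with RMA and Affymetrix Expression Console, per the submitters' processing notes; the sources used here give no versions. RMA makes array distributions alike, so a shift of most transcripts would be reduced. Arrays were grouped by sample title. The labels call them biological replicates without saying whether cultures were transduced separately, so p-values cover the spread between these arrays, which may be technical.

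The platform's annotation named 16098 probe sets, for 14884 genes. The probe set with the highest mean stood for a gene. One gene matching the symbols is not reported here. The comparison used lmFit and eBayes of limma 3.58.1 under R 4.3.3, without a filter or a replicate block, with Benjamini-Hochberg adjustment over all genes and a threshold of 0.05. The procedure was tested on simulated data. No 2 arrays were copies: the SD of log2 differences was 0.286 to 0.348 within groups and 0.369 to 0.429 between them. With 3 against 3 arrays, an exact permutation test cannot go below p = 0.1.

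The set and the lists were chosen with earlier results of these data known. Every gene past the threshold is named with all its values, the rest with their difference, and in each list the 4 smallest p past the threshold, or 2 where none passed. MYD88, IRAK1, TNF, EDA, CRLF2 and TSLP were added for their role. CSF3, LIF, STAT3, CISH, TNIP2, TNIP3, CFLAR and MAP3K14 were added as further calls of their lists. Alternatives were single arrays left out, a replicate block, filters on dim genes, probe set choice, scaling, variance model, array weights, a stricter threshold and adjustment over all probe sets.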

Additional observations from a re-analysis of the deposited data

How the results depend on the processing

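All 11 interleukin genes that passed kept their direction in every alternative in which they were fitted. IL1RAP, IL1RL2, IL17RB, IL17RD, IL20RB and IL4I1 also stayed past the threshold. Without 1 array, 8 to 11 genes passed, with 0 to 2 ligands higher and 0 to 1 lower. That is 14.29% to 19.64% of the 56, against 15.64% to 17.32% of all genes, a share that was 21.8% with all arrays. The p-values were also adjusted over all 53617 probe sets, of which 37519 are unnamed and 6.65% passed. There 3 genes were higher (0 ligands, 2 receptors) and 0 ligands lower. At an adjusted p under 0.01 it was likewise 3 higher (0 ligands, 2 receptors) and 0 ligands lower. IL11, IL20, IL22, IL31RA and IL7R were the calls lost in each. Among genes above the 20th percentile, and with a variance trend and robust fit, 0 ligands were lower, since IL22 was not fitted in the first and missed the threshold in the second. Above the median, 11 of the 56 genes were fitted and 7 passed (63.64%, against 48.33% of all genes fitted there). Of these, 2 were lower, with 2 receptors higher and 0 ligands lower. Of the 11 genes, 10 did not overlap between groups, and the share of all genes above the median that did not overlap was not computed. TNFRSF10A-DT, at 0.09 and not past the threshold, turned to -0.34 and passed (0.0431) with the probe set of largest SD, since its probe sets disagree. IL18 passed in 4 alternatives, IL4R in 2 and IL17RC in 2; IL34 passed without shGFP replicate 1, where it was the 1 lower ligand and IL22 was lost, and IL23R without shPGC-1alpha replicate 1. With the replicate number as a block (replicate block), 7 were higher and 4 lower, the same 11 genes (19.64%, against 18.63% of all genes). Of the genes in the lists, CFLAR, MAP3K14 and DPP4 lost their calls. Deviations of same-numbered arrays correlated at 0.117, 0.087 and 0.023. Each shPGC-1alpha array correlated best with the shGFP array of its own number. Of the shGFP arrays, replicates 1 and 2 did likewise, and replicate 3 correlated best with shPGC-1alpha replicate 2. The labels name no pairs and the main fit used none, but these values do not settle whether the numbers mark pairs. The number of arrays limits the precision, and dim probe sets are close to background.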
